A study of Homo sapiens with 2 samples.

Results

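The genes described here are 37 genes of the Fanconi anaemia pathway and of homologous recombination, out of 20037 protein-coding genes on chromosomes 1 to 22, X and Y. They were taken as a named list, and every CUT&Tag summit within 1 kb and within 50 kb of either end of each gene's RefSeq record was collected. In CUT&Tag an antibody brings a transposase to its target on chromatin, and the DNA around it is cut, tagged and sequenced. The target was EWS-FLI, the fusion of EWSR1 with the ETS factor FLI1, in the Ewing sarcoma line TC32. One group is TC32 given siEWS-FLI (1 library) and the other is TC32 given siNEG (1 library). The labels neither spell out siNEG nor name the antibody, and both libraries had 34 PCR cycles in total, 14 and then 20. With 1 library in each group no difference has a replicate check, no test was possible, and the level of the fusion was not measured.

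Fanconi anaemia proteins act where the strands of DNA are covalently linked to each other, a lesion that cisplatin can cause. A core complex places ubiquitin on the FANCD2 and FANCI clamp, and nucleases then unhook the link. The resulting break is repaired by homologous recombination, in which BRCA1, PALB2 and BRCA2 prepare single-stranded DNA to pair with an intact copy and other enzymes then separate the joined chromosomes. ETS factors such as FLI1 recognise a GGAA core, and the fusion also occupies repeats of GGAA.

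The values are summit pileups, the number of raw extended reads over the summit base, recovered from the deposited fold and p-value and not scaled between libraries. The siEWS-FLI list had 6370 intervals and a library background of 0.239 reads per base, and the siNEG list had 16284 intervals and 0.348 reads per base. The ratio of these backgrounds was 0.687. Both lists hold mitochondrial lines, 29 each, and how far mitochondrial reads enter the backgrounds is not known, so the ratio is no measure of nuclear depth. The median pileup over all intervals was 5 reads with siEWS-FLI and 8 with siNEG, and the smallest called pileup was 4 in both. Intervals of 95% are exact Poisson intervals or, for ratios of pileups, exact intervals, and they cover counting error only. Where a library has no called interval, reads too few for the caller may still be there. Of 18 known Ewing sarcoma target genes, 1 (5.56%) had a siEWS-FLI summit within 1 kb and 6 (33.3%) a siNEG summit, beside 12.3% and 34.1% of all protein-coding genes, so these genes did not stand above the rest at their ends. Within 50 kb 5 of the 18 had a siEWS-FLI summit (27.8%, beside 44.5% of all genes) and all 18 a siNEG summit (beside 71.8%). Of 10 hepatocyte and 10 blood marker genes 0 had a summit within 1 kb in either library. Within 50 kb, 2 hepatocyte genes had a siEWS-FLI and 4 a siNEG summit, and 8 blood genes had a siEWS-FLI and 7 a siNEG summit.

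Most of the 37 genes carried an EWS-FLI CUT&Tag summit at a gene end with siNEG, and fewer did with siEWS-FLI. Within 1 kb, 10 of 37 genes (27%) had a siEWS-FLI summit, against 12.3% of all protein-coding genes. With siNEG it was 29 of 37 (78.4%), against 34.1% of all genes. All 10 genes with a siEWS-FLI summit also had a siNEG summit (11.1% of all genes had both). Of the 29 genes with a siNEG summit, 34.5% also had one with siEWS-FLI, beside 32.7% over all genes with a siNEG summit. The share of genes with a summit was above that of all genes in each library, while the share of siNEG genes that also had a siEWS-FLI summit was near that of all genes. Under a −log10 q minimum of 5, siEWS-FLI summits were at 4 genes (10.8%, against 6.14% of all genes), and with the siNEG list shortened to the length of the siEWS-FLI list, siNEG summits were at 17 genes (45.9%, against 20.4%).

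**Figure D1:**
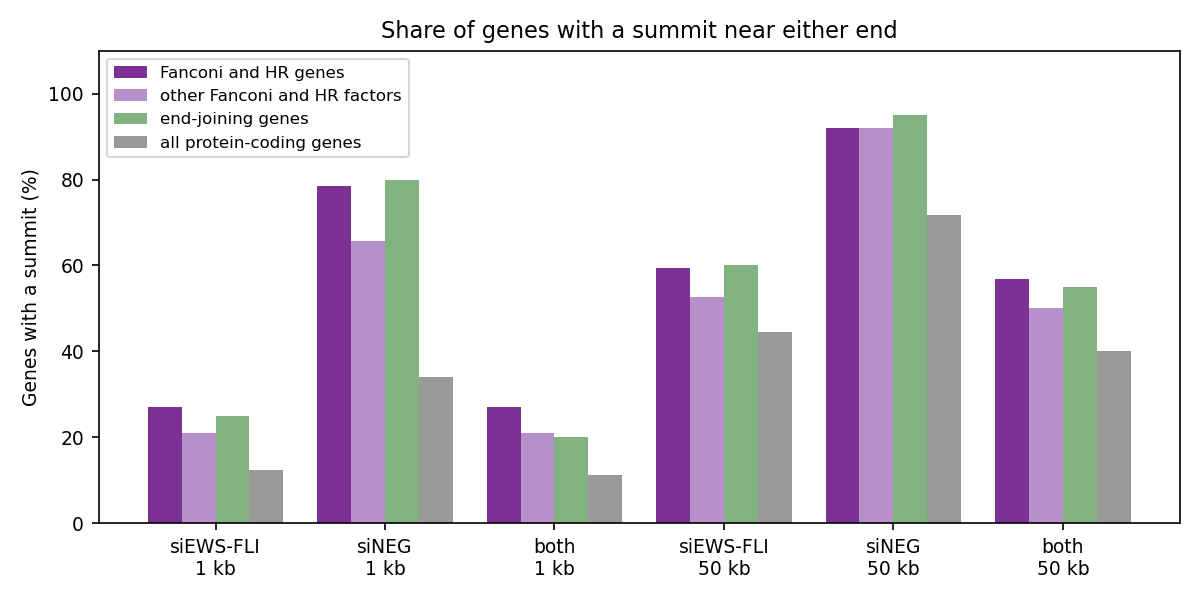
Percent of genes with a summit within 1 kb and within 50 kb of a gene end in siEWS-FLI, siNEG and both libraries, for the 37 Fanconi and homologous recombination (HR) genes, 38 other factors of these pathways, 20 end-joining genes and all 20037 protein-coding genes. Within 1 kb the genes reached 27% with siEWS-FLI and 78.4% with siNEG, against 12.3% and 34.1% of all genes.

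Within 50 kb, 22 of 37 genes (59.5%) had a siEWS-FLI summit, against 44.5% of all genes. With siNEG 34 of 37 (91.9%) had one, against 71.8% of all genes, and 21 had both (56.8%), against 40.2%. Having both in this window does not mean a shared site. At 16 genes a siNEG interval there overlapped a siEWS-FLI interval, a count for which no share of all genes was computed. The siEWS-FLI count was 9 with summits counted for their nearest gene alone (24.3%, against 20.2% of all genes), 8 at a −log10 q minimum of 5 (21.6%, against 19.4%) and 13 without 200-base intervals (35.1%, against 23.1%). Genes with both were then 7 (18.9%, against 15.1%), 8 (21.6%, against 18.6%) and 12 (32.4%, against 22.7%). With the siNEG list shortened as above, siNEG summits were at 22 genes (59.5%, against 49.3%). FANCE and BRCA2 had no summit of either library within 50 kb. RBBP8 was the 1 gene with a siEWS-FLI summit and no siNEG summit in that window.

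The promoters of the 10 genes called in both libraries are shown in part, because the results turn on these sites, together with FAN1 (siNEG alone) and with RAD50, FANCD2 and BRCA2, which were chosen after their values were seen for the words they hold. Capitals mark the word CCGGAA, on the opposite strand TTCCGG, as well as the word CGGAAGT, on the opposite strand ACTTCCG. These are words with the ETS core that overlap in CCGGAAGT. Sequences are from RefSeq, build GRCh38.p14, 5′ to 3′ on the strand of the gene, and further words of GEN1, EME1, TOP3A and BLM lie outside the stretches shown. A stretch need not hold the called site, and a marked word need not be the one nearest the summit. The stretches of BLM, GEN1 and FANCC hold the summit of neither library, and that of FANCC lies outside both called intervals. Those of SLX4, EME1, TOP3A and BARD1 hold the siNEG summit but not the siEWS-FLI summit.
PALB2: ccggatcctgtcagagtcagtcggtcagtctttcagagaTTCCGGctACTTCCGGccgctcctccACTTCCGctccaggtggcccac
SLX4: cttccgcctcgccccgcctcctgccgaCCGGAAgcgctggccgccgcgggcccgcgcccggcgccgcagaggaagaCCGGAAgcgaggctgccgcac
EME1: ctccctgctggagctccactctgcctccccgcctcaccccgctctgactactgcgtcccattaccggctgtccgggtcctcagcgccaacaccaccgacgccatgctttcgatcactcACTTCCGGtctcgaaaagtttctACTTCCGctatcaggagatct
BLM: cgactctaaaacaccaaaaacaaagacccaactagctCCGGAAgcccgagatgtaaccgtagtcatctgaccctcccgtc
TOP3A: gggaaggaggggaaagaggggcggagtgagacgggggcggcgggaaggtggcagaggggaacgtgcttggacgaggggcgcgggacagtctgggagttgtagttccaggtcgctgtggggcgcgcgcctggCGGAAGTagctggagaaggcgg
FANCC: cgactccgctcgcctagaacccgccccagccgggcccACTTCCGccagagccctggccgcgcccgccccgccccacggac
RAD54L: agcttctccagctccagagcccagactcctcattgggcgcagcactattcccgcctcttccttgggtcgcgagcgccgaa
BARD1: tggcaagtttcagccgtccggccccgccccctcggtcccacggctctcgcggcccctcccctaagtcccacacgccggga
FANCB: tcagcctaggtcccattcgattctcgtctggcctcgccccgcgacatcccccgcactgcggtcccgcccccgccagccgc
GEN1: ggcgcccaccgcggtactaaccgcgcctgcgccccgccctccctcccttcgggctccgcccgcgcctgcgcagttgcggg
FAN1: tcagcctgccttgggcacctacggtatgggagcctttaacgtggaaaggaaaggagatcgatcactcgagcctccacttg
RAD50: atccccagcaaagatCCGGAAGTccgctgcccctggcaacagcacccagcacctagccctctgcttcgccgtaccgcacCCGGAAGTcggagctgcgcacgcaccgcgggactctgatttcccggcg
FANCD2: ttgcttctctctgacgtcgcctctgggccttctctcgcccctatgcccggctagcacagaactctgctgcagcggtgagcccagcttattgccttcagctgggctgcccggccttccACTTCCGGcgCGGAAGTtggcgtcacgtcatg
BRCA2: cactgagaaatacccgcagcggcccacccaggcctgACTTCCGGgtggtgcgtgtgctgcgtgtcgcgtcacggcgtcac
Genes read on the plus strand are shown at chr17:50373067-50373228 for EME1, chr15:90717116-90717195 for BLM, chr1:46247592-46247671 for RAD54L, chr2:17753789-17753868 for GEN1, chr15:30903740-30903819 for FAN1, chr5:132556807-132556933 for RAD50, chr3:10026250-10026398 for FANCD2 and chr13:32315383-32315462 for BRCA2. Genes read on the minus strand are shown at chr16:23641432-23641518 for PALB2, chr16:3611673-3611769 for SLX4, chr17:18314997-18315149 for TOP3A, chr9:95317773-95317852 for FANCC, chr2:214809854-214809933 for BARD1 and chrX:14873240-14873319 for FANCB.

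Windows of 300 bases, 250 before and 50 after the listed start, were searched on both strands for 33 of the 37 genes and for 15843 protein-coding genes. CCGGAA was in 12 of the 33 windows (36.4%), against 22.9% of all windows, and CGGAAGT was in 11 (33.3%), against 9.79%. The words differed once genes were split by their siNEG summit within 1 kb of either end of the record. That end is not always the listed start, so the split does not separate promoters with and without a summit. MRE11, which holds both words, counts as without one, although a siNEG summit lies 89 bases from its listed start. RAD51B and RAD52 count as with one through summits far from their listed starts. CCGGAA was in 34.6% of the 26 listed genes with a siNEG summit, below the 40.1% of all genes with one, and in 42.9% of the 7 without one, against 13.1% of all such genes. CGGAAGT was in 34.6% of the 26, against 21.4% of all genes with a siNEG summit, and in 28.6% of the 7, 2 windows, against 3.18%. The median GC content was 64.7% in the 33 windows, 62.7% over all windows and 65.3% over those of genes with a siNEG summit, and its part in the shares was not tested. GGAAGGAA, on the opposite strand TTCCTTCC, a pair of adjacent GGAA units, was in 0 of the 33 windows and in 3.58% of all.

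Of the 26 genes with a siNEG summit, 12 held a word and 14 held neither. In these 12, the distance from the siNEG summit to the middle of the nearest word ran from 14 to 302 bases. Among the genes called in both libraries it was 14 bases in SLX4, 16 in BLM, 26 in PALB2, 106 in EME1, 119 in TOP3A, 142 in GEN1 and 302 in FANCC. In genes called with siNEG alone it was 29 bases in RAD50, 96 in RAD51D, 98 in XRCC2, 105 in FANCD2 and 106 in FANCF. BRCA2 holds both words within 89 bases before its start and had no summit in either library, while RAD54L, BARD1 and FANCB, called in both libraries, are among the 14 with neither word. A match is a description of these letters and not a binding site. FANCI, RAD54B, NBN and RMI2 have no entry in the promoter table.

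The core complex brings the ubiquitin ligase to damaged DNA. Of the 9 genes grouped with it here, which include the conjugating enzyme UBE2T, 2 had a siEWS-FLI summit within 1 kb and 6 a siNEG summit. FANCB, part of the catalytic module with FANCL, had 5 reads with siEWS-FLI (95% interval 1.62 to 11.7) and 15 with siNEG (8.40 to 24.7), a ratio of 0.333 (0.0948 to 0.965). Its siNEG summit lay 232 bases before the start and 120 bases from an end of MOSPD2, which is nearer. FANCC, which joins the core complex with FANCE and FANCF, had 4 reads with siEWS-FLI (1.09 to 10.2) and 6 with siNEG (2.2 to 13.1), and these intervals overlap.

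Of the other 7 genes of this group, 4 were called within 1 kb in siNEG alone and 3 in neither library. FANCG, an adaptor that holds FANCA, had no siEWS-FLI interval and 16 reads with siNEG, 14 bases into the gene. A further siNEG summit of 14 reads lay 981 bases past its other end, nearer to VCP. FANCL, the ligase subunit, and FANCF, an adaptor, had no siEWS-FLI interval and 7 reads each with siNEG. UBE2T, the conjugating enzyme that works with FANCL, had none with siEWS-FLI and 6 reads with siNEG. FANCA, FANCE and FANCM, which anchors the complex to DNA, had no summit within 1 kb in either library. At FANCA the strongest pair of summits, 4 reads with siEWS-FLI and 20 with siNEG, lay 35.0 and 35.5 kb away and nearest SPATA2L.

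FANCD2 and FANCI form the clamp that the core complex modifies, and neither had a siEWS-FLI interval within 1 kb. FANCI had 36 reads with siNEG (25.2 to 49.8), 22 bases from its end, the strongest of the core and clamp genes. FANCD2 had 9 reads with siNEG (4.12 to 17.1), 172 bases before the start. With siEWS-FLI up to 3 reads at either gene would go uncalled over the library background. Over the local background of siNEG the limit at FANCI would be 7 reads. The nearest siEWS-FLI summit to FANCI, 10 reads against 21 with siNEG, lay 17.9 kb away and nearest POLG.

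BRCA1 and its partners carry a break into the strand-pairing step, and 2 of the 5 genes had siEWS-FLI summits and 4 siNEG summits within 1 kb. PALB2, which bridges BRCA1 to BRCA2, had 6 reads with siEWS-FLI (2.2 to 13.1), 131 bases before the start, and 57 with siNEG (43.2 to 73.9), 193 bases before it. The ratio of 0.105 (0.0371 to 0.244) was the lowest of the 10 shared sites, and the interval lies below the ratio of the library backgrounds. The siNEG summit is 37 bases from an end of DCTN5, which is nearer. BARD1, the ubiquitin ligase partner of BRCA1, had 8 reads with siEWS-FLI (3.45 to 15.8) and 20 with siNEG (12.2 to 30.9), a ratio of 0.4 (0.152 to 0.948).

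BRCA1 itself had no siEWS-FLI interval and 10 reads with siNEG (4.80 to 18.4). That summit is 65 bases before the start of the RefSeq record and 17 bases from an end of NBR1, which is nearer. BRCA1P1 also has an end within 1 kb of that summit. A further siNEG summit of 9 reads lay 794 bases before the start and is also nearer to NBR1. BRCA1 counts among the genes with a siNEG summit through these sites beside NBR1 alone. The listed start of BRCA1 is the outer end of this record. The record takes in NBR2, and neither library had a summit within 1 kb of the end of NBR2 that lies inside it. BRIP1, a helicase that binds BRCA1, had no siEWS-FLI interval and 4 reads with siNEG (1.09 to 10.2), the smallest pileup that was called.

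None of RAD51B, RAD51C, RAD51D, XRCC2 and XRCC3, a family of 5 paralogs that assist strand pairing in shared complexes, had a siEWS-FLI summit within 1 kb, and 4 had a siNEG summit. RAD51D had 12 reads with siNEG, 5 bases before its start, and XRCC2 had 7, 42 bases before it. XRCC3 had 11 reads with siNEG, 136 bases before its start, and another 11 at 7.15 kb inside the gene. RAD51B had 10 reads with siNEG at the far end of the gene, 274 bases past it. RAD51C had 4 reads with siEWS-FLI at 10.3 kb and 5 with siNEG at 33.6 kb. All of these siNEG pileups are under 20 reads, the range in which a siEWS-FLI summit was less frequent over all genes too.

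Among the RAD52 and RAD54 factors, which anneal strands and drive strand exchange, 1 of 3 had a siEWS-FLI summit within 1 kb and all 3 a siNEG summit. RAD54L, a DNA translocase of strand exchange, had siEWS-FLI summits of 8 reads (3.45 to 15.8), 410 bases before the start, and 7 reads, 54 bases before it. With siNEG it had 28 reads (18.6 to 40.5), 56 bases before the start. At that shared interval the ratio was 0.25 (0.0922 to 0.586). RAD52, which anneals complementary strands, had no siEWS-FLI interval and 9 reads with siNEG within 1 kb of its record's end. Its listed start lies further inside the record, and there the pileups were 7 reads with siEWS-FLI (2.81 to 14.4) and 27 with siNEG (17.8 to 39.3). With summits counted within 1 kb of the listed start alone, 11 of 33 genes had both, RAD52 among them. That is 33.3%, against 11.8% of all genes with a listed start. RAD54B had 6 reads with siNEG alone.

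The end resection genes expose single strands at a break, and 0 of 4 had a siEWS-FLI summit within 1 kb and 2 a siNEG summit. RAD50 and NBN, which with MRE11 form the complex that binds broken ends, had no siEWS-FLI interval. RAD50 had 18 reads with siNEG (10.7 to 28.4), 58 bases before its start and 104 bases from IL5, and NBN had 8. MRE11, the nuclease of that complex, had 8 reads with siNEG at 18.7 kb from the record's end and 89 bases from its listed start. RBBP8, which promotes resection with MRE11, had 4 reads with siEWS-FLI at 1.87 kb and none with siNEG.

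BLM, TOP3A, RMI1 and RMI2 dissolve joined recombination intermediates, and 2 of the 4 genes had siEWS-FLI summits and 3 siNEG summits. BLM, the helicase, had 6 reads with siEWS-FLI (2.2 to 13.1) and 35 with siNEG (24.4 to 48.7), both 17 bases inside the start, a ratio of 0.171 (0.0589 to 0.412). TOP3A, the topoisomerase, had 6 reads with siEWS-FLI (2.2 to 13.1) and 22 with siNEG (13.8 to 33.3), a ratio of 0.273 (0.0905 to 0.694). RMI1 had 15 reads with siNEG alone, nearer to HNRNPK. RMI2 had 7 reads with siNEG at 16.9 kb.

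Of the 5 structure-specific nuclease genes, the scaffold SLX4 among them, 3 had a siEWS-FLI summit within 1 kb and all 5 a siNEG summit. SLX4, the scaffold on which several nucleases assemble, had 8 reads with siEWS-FLI (3.45 to 15.8) and 58 with siNEG (44.0 to 75.0), a ratio of 0.138 (0.0569 to 0.29). Its siNEG summit is 6 bases from DNASE1. EME1, partner of MUS81, had 9 reads with siEWS-FLI (4.12 to 17.1) and 40 with siNEG (28.6 to 54.5), a ratio of 0.225 (0.096 to 0.471), 102 bases from MRPL27. GEN1, which cuts joined intermediates, had 11 reads with siEWS-FLI (5.49 to 19.7) and 37 with siNEG (26.1 to 51.0), a ratio of 0.297 (0.137 to 0.595). The siEWS-FLI summit lay 60 bases and the siNEG summit 172 bases inside the listed start of GEN1, and 119 and 231 bases from SMC6. MUS81 had no siEWS-FLI interval and 40 reads with siNEG (28.6 to 54.5), and FAN1, a nuclease that removes DNA around a link, had none and 27 (17.8 to 39.3). The MUS81 summit is 75 bases from the gene's end, and a further siNEG summit of 23 reads lay 565 bases inside the gene. The local background there was 6.88 reads with siNEG, over which up to 19 reads would go uncalled, and at FAN1 the limit was 6. Over the library background of siEWS-FLI the limit would be 3 reads at both genes. The local background of siEWS-FLI at these uncalled sites is not known.

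**Figure D2:**
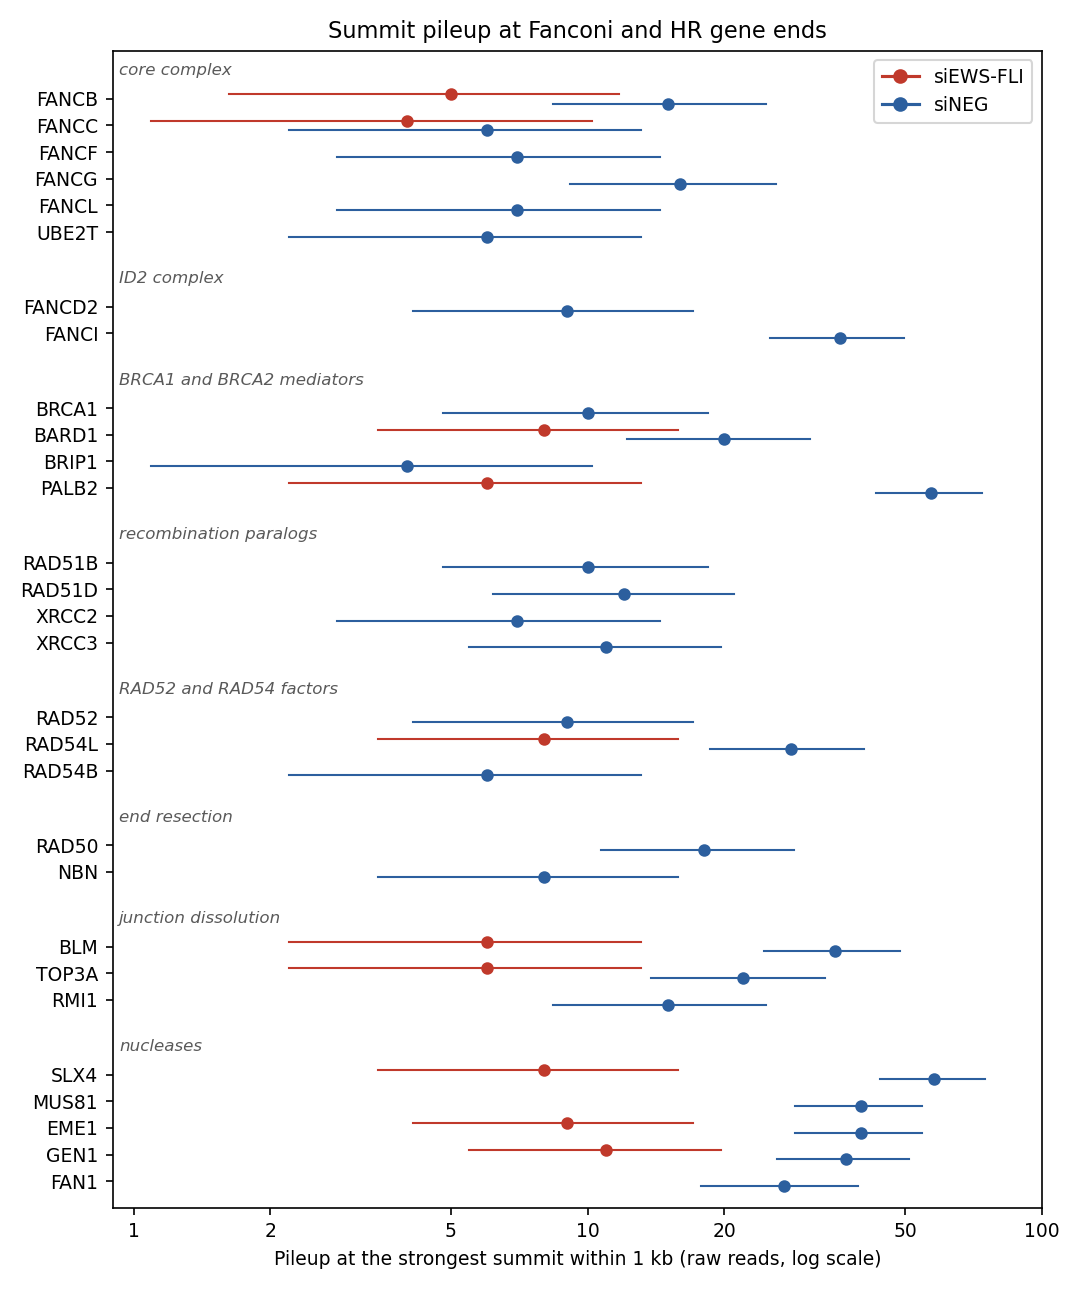
Pileup at the strongest summit within 1 kb of each gene's ends, in raw reads on a log axis, with exact 95% Poisson intervals that cover counting error only; siEWS-FLI is drawn above siNEG in each row and a library with no called interval has no point. The 29 genes shown had siNEG pileups of 4 to 58 reads, and the 10 with a siEWS-FLI summit had 4 to 11.

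Whether a gene also had a siEWS-FLI summit went with the strength of its siNEG summit. Of the 18 genes with fewer than 20 siNEG reads, 2 had a siEWS-FLI summit within 1 kb, and of the 11 with 20 or more, 8 had one. The same order held over all genes, at 9.98% for 4 to 9 siNEG reads, 24.2% for 10 to 19, 54.6% for 20 to 49 and 88% for 50 or more. In these classes the genes described here gave 1 of 10, 1 of 8, 6 of 9 and 2 of 2. RAD52 is classed by the 9 siNEG reads at its record's end and not by its listed start. The median strongest siNEG pileup was 15 reads (range 4 to 58) for the 29 genes and 12 reads for all genes with a siNEG summit, and 37.9% against 32.5% reached 20 reads.

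At the 10 shared intervals the median ratio of siEWS-FLI to siNEG pileup was 0.261 (range 0.105 to 0.667), beside 0.273 over the 1663 shared gene-end intervals of all genes. By class of siNEG reads the median was 0.667 (1 interval) beside 0.789 of all genes for 4 to 9 reads, and 0.333 (1 interval) beside 0.5 for 10 to 19. It was 0.261 (6 intervals) beside 0.261 for 20 to 49 reads, and 0.122 (2 intervals) beside 0.138 for 50 or more. A shared interval has at least 4 siEWS-FLI reads, the smallest called pileup, so the lowest possible ratio is higher at weaker siNEG summits. FANCC, with 4 reads, lies at that floor. Sites with no siEWS-FLI interval, such as those of MUS81, FANCI and FAN1, have no ratio. The range and the order of the classes depend on this rule of calling. All 10 ratios were below the 0.687 of the library backgrounds, and for 6 the whole interval was below it. That value is no measure of nuclear depth, and the median of 0.273 over all shared gene-end intervals was below it too. The parts of sequencing depth and of the enrichment of each library in these ratios were not tested. A lower pileup is therefore not shown to be less binding, and fewer bound cells cannot be told apart from less binding per cell. The siEWS-FLI interval was of the narrowest width, 200 bases, at 4 of the 10 genes, and the siNEG interval at 2 of the 29. At 5 of the 10 the siEWS-FLI pileup was called although it was at or under the limit set by the siNEG local background, so that limit is higher than the caller's own.

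**Figure D3:**
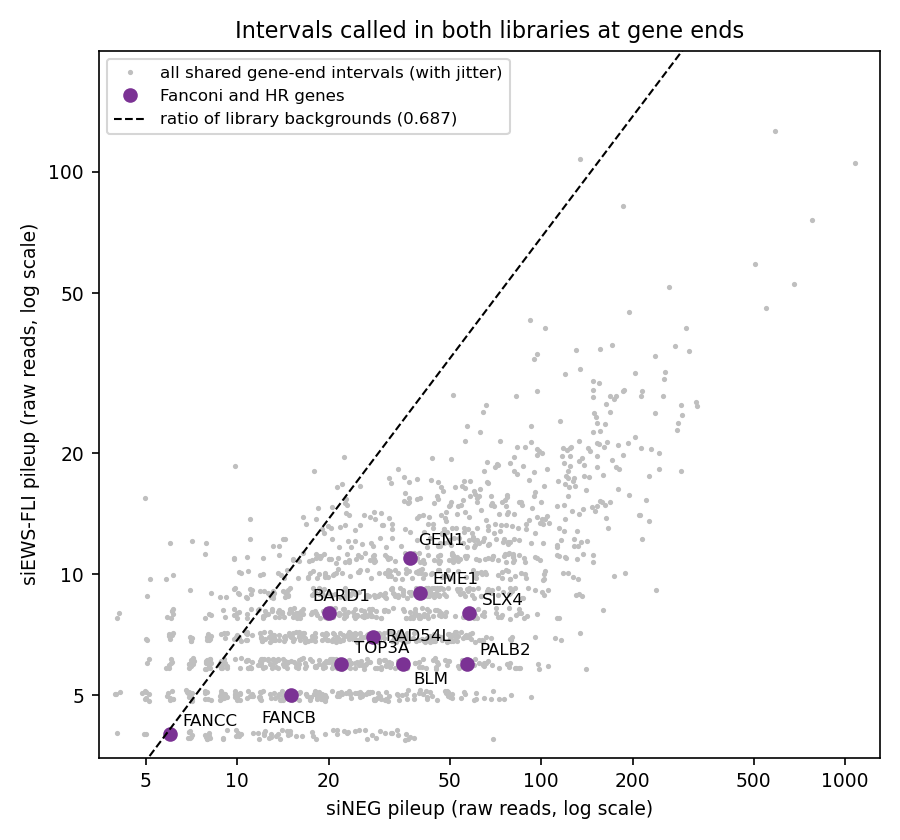
siEWS-FLI pileup against siNEG pileup, in raw reads on log axes, for intervals called in both libraries within 1 kb of a gene end (grey, with a small random shift so that points do not cover each other) and for the 10 Fanconi and homologous recombination genes (purple). The dashed line is the ratio of library backgrounds, 0.687, which is no measure of nuclear depth, and all 10 points lie below it. RAD54L is plotted at 7 reads, the siEWS-FLI summit that overlaps its siNEG interval.

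The summits sat at gene starts. Of the genes with a listed start and a summit within 1 kb, 8 of 10 with siEWS-FLI (80%) lay within 250 bases of it, against 59.1% of all genes. With siNEG it was 23 of 26 (88.5%), against 70%. The median distance was 162 bases with siEWS-FLI and 138 with siNEG for these genes, and 201 and 158 over all genes. For 11 of the 29 genes the strongest siNEG summit was also within 1 kb of another protein-coding gene, and for 7 it was nearer to that gene than to an end of the gene's own record. GEN1 is one of the 7, although its summit is nearer to its listed start than to SMC6. Which gene such a site acts on was not measured.

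**Figure D4:**
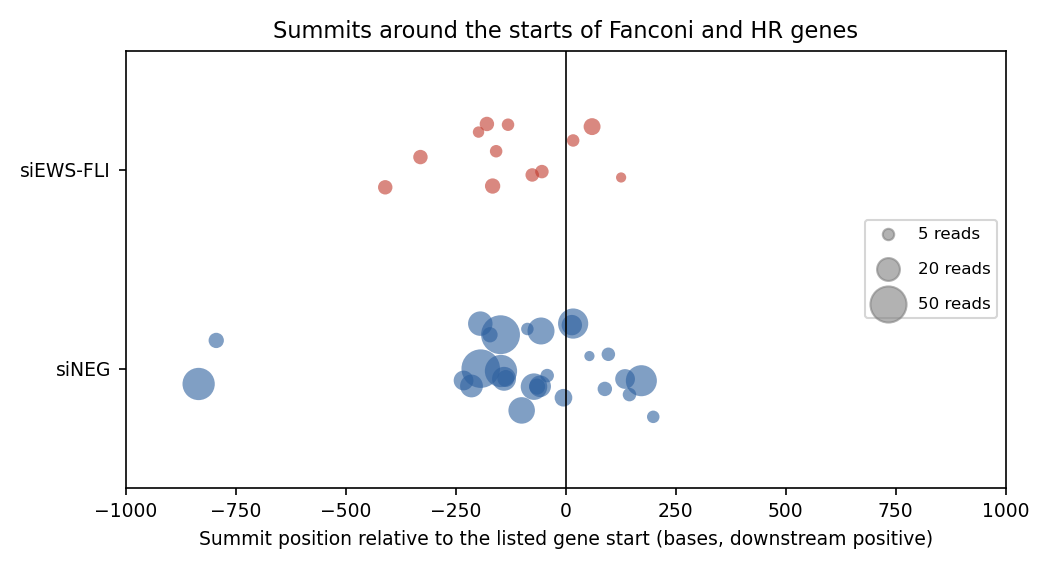
Position of each summit within 1 kb of the listed start of its gene, in bases, negative before the start, in a row for siEWS-FLI and a row for siNEG. Dot area stands for the pileup in raw reads, and height within a row has no meaning. Of the plotted summits, 10 of 12 with siEWS-FLI and 26 of 28 with siNEG lie within 250 bases of a start.

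Summits between 1 and 50 kb added 12 genes with siEWS-FLI, and the strongest of these summits was nearest to another gene in 7 and to the gene itself in 5. RAD52 is among the 5, through a summit 76 bases before its listed start, which lies inside the record. From the 1 kb to the 50 kb window the siEWS-FLI share went from 27% to 59.5% here, and from 12.3% to 44.5% over all genes. The gap to all genes was much the same in both windows. The strongest neighbours were EARS2 in the PALB2 window, with 18 reads with siEWS-FLI and 106 with siNEG at 45.8 and 45.6 kb, and the UQCRH and LRRC41 site in the RAD54L window, with 12 reads with siEWS-FLI and 59 with siNEG. In the BRCA1 window the site at RPL27 had 9 reads with siEWS-FLI and 47 with siNEG, at 46.1 and 46.0 kb. In the MUS81 window the site at FIBP had 9 reads with siEWS-FLI and 41 with siNEG. These summits lie within 1 kb of those neighbours and not of the repair genes. FANCM had 7 reads with siNEG at 1.49 kb, nearest FKBP3, and none with siEWS-FLI.

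Other genes of the same pathways were described from a further list of 38. Of these, 8 (21.1%) had a siEWS-FLI summit within 1 kb, against 12.3% of all genes, and 25 (65.8%) had a siNEG summit. All 8 had both, against 11.1% of all genes. They were 32% of the list's genes with a siNEG summit, near the 32.7% over all genes. RTEL1, a helicase that takes apart recombination intermediates, had 12 reads with siEWS-FLI and 61 with siNEG. USP1, which removes ubiquitin from FANCD2, had 13 with siEWS-FLI and 58 with siNEG. MCM8, a helicase of recombination, had 5 with siEWS-FLI and 57 with siNEG, and SWSAP1, a factor of recombination, had 15 with siEWS-FLI and 45 with siNEG. End joining is the other main route of break repair. Of 20 of its genes, 5 (25%) had a siEWS-FLI summit and 16 (80%) a siNEG summit within 1 kb. The 4 with both were 20% of the list, against 11.1% of all genes. They were 25% of the list's genes with a siNEG summit, beside 32.7% over all genes. POLM, an end-joining polymerase, had 8 reads with siEWS-FLI and 72 with siNEG, and TP53BP1, which opposes resection, had 9 with siEWS-FLI and 45 with siNEG. XRCC5, the Ku80 subunit, and PAXX, its partner, had no siEWS-FLI interval and 53 and 33 reads with siNEG. The siNEG shares of all 3 lists of repair genes were above the 34.1% of all genes.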

How the data were processed

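CUT&Tag of TC32 cells gave 1 deposited peak list for siEWS-FLI and 1 for siNEG. The submitters' processing notes list MACS2 2.2.9.1, Bowtie2 2.4.5 and Trim Galore 0.6.6, and the build hg38, but give no roles. Duplicate handling, fragment settings and any control library: not given in the sources used here. The deposited columns hold a display score, which was not used, a fold (linear ratio) over local background at the summit, and −log10 p and −log10 q values. The smallest deposited −log10 q was 1.33 with siEWS-FLI and 1.32 with siNEG.

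The pileup was solved from the deposited fold, taken as (pileup + 1)/(background + 1), and from the −log10 p-value, taken as a Poisson upper tail. The tolerance was 0.001 in log10 p, and it was wider in proportion for large −log10 p. A whole pileup solved 100% of the 6559 siEWS-FLI and 17313 siNEG lines, with 2 solutions for 8 and 16 lines. Tested on simulated data, the step returned 100% of 1970 siEWS-FLI and 1841 siNEG pileups. Those data were made with the same formulas, and pileups close to the background were left out. The test checks the arithmetic of the step, and cannot show whether the caller used these formulas. PCR reads carry no molecular identifiers, so the 95% intervals cover counting error only, and read totals are not known. Lines sharing an interval were merged at the strongest summit. An overlap of 1 base made intervals shared.

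Genes, ends and promoters came from RefSeq, GRCh38.p14, which places bases of these chromosomes as hg38 does. Gene records do not tell exons from introns here. No test was run. Every gene of the 37 with a summit within 1 kb is named, and up to 4 of each other repair list by siNEG pileup. The 37 genes and all lists were chosen with earlier results of these data known. The 12 kinds of alternative are in the closing section. Python 3.11.15, pandas 2.3.3, numpy 2.4.6, SciPy 1.17.1 and matplotlib 3.10.9 were used.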

Additional observations from a re-analysis of the deposited data

Results flagged for a closer look

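Weak siEWS-FLI intervals lay deep inside a pair of long genes, in data that no comparison uses, and siNEG had no interval at either place. In BRIP1 the siEWS-FLI pileup was 4 reads (95% interval 1.09 to 10.2), 72.5 kb from the nearest gene end, and in RAD51B it was 4 reads (1.09 to 10.2), 170 kb from it. Both equal the smallest pileup that was called. Deep intervals were not particular to siEWS-FLI: siNEG had 5 inside RAD51B, of 6 to 10 reads, and 1 inside FANCC, of 5 reads.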

How the results depend on the processing

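Of 62 counts and medians recomputed under alternatives, 46 stayed near the reported value and 16 did not. For counts, near meant within 1.5 times. For the median pileup it meant within the Poisson interval of a single count of that size. For the median ratio it meant within the exact interval of the reads pooled over the shared intervals. Neither is an interval of a median. The overlap of 1 base is also the main setting for the ratio, so the ratio could not move there. Counting a summit for no gene but its nearest, genes with a siEWS-FLI summit within 50 kb were 9 and those with both were 7. Under a stricter −log10 q minimum of 5, siEWS-FLI summits within 1 kb and genes with both were 4 and 4. These are 10.8% each, against 6.14% of all genes for siEWS-FLI and 5.79% for both. Within 50 kb they were 8 and 8 (21.6% each, against 19.4% and 18.6%). With the siNEG list cut to the length of the siEWS-FLI list, siNEG genes were 17 within 1 kb (45.9%, against 20.4% of all genes) and 22 within 50 kb, and the median siNEG pileup was 27 reads. Without intervals of exactly 200 bases, siEWS-FLI genes and genes with both were 6 and 6 within 1 kb. These are 16.2% each, against 7.66% of all genes for siEWS-FLI and 7.42% for both. Within 50 kb they were 13 and 12 (35.1% and 32.4%, against 23.1% and 22.7%). With a reciprocal overlap of 50%, genes with both were 4 within 1 kb and 8 within 50 kb, and the median ratio was 0.349, in place of 0.261. The share of all genes was not computed under that overlap. Each of these settings lets fewer intervals or shared pairs enter. Single pileups were compared only where the gene was still called, and genes that lost their call were left out. An interval that stays keeps its pileup, so this comparison is no check of robustness. Of 237 single pileups compared, 2 moved. MUS81 with siNEG was 55 reads in a window of 2 kb, where the summit is nearest CFL1. RAD52 with siNEG was 27 reads at its listed start alone. No paired analysis was possible because each group has 1 library, and for the same reason no library could be left out.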
